A study of Homo sapiens with 9 samples.

Results

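Autophagy genes, the machinery that builds autophagosomes together with the receptors that load cargo into them, were followed by 50 gene symbols chosen by name. The choice was made with earlier results of these data known, so the counts below describe these genes and are not a test of the set. The array rows that the platform annotation names with a single symbol covered 39 of the 50, out of 14884 genes with such a row. All 39 were above the limit under which genes were left out as dim, a mean log2 level of 4.50 over the 9 arrays. The other 11 had no named row and are not analysed here: ATG4A, ATG4B, ATG4C, ATG4D, ATG9B, BECN1, NBR1, PIK3C3, PIK3R4, WIPI1 and WIPI2.

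RNA came from HT-29 cells, an established human colon adenocarcinoma line, measured on Affymetrix whole-transcript arrays. The 3 groups of 3 arrays were cells given rosemary extract, a polyphenol-rich plant extract, cells given carnosic acid, a phenolic diterpene of rosemary, and untreated cells, which received vehicle according to the treatment protocol. All were harvested after 24 h, and the design text describes the arrays of a group as biological replicates. No label read here states a concentration, so it is not known whether the 2 treatments were at matched doses. All values below are log2 levels made by RMA (robust multi-array average), and changes are differences of mean log2 level. A gene was called at an adjusted p under 0.05 in a limma fit to all 9 arrays, adjusted by Benjamini-Hochberg over 11163 genes. Levels of different genes are not compared, since each array row has its own probes. An array reads RNA from all cells together, so more RNA per cell and more cells that make it cannot be told apart. Protein levels and autophagic flux were not measured.

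The median of all rows was 4.82 to 4.90 on the 9 arrays, arrays of 1 group correlated at 0.9910 to 0.9930, and arrays of different groups at 0.9767 to 0.9901. Of 12 colon epithelium markers 9 had a named row and none was dim. Of the 9, 1 was called higher and 4 lower with rosemary extract, where 21.8% and 16.3% of all genes tested were, and 2 higher and 3 lower with carnosic acid, where 12.9% and 6.12% were. The largest changes were in VIL1 (villin), which gave -1.29 with the extract and -0.35 with carnosic acid, and KRT20 (keratin 20), which gave 0.77 and 0.88. The summed level of the 9 was 13.43 to 13.55 with rosemary extract, 13.63 to 13.65 with carnosic acid and 13.61 to 13.67 in untreated cells (log2 of the sum). Of the fibroblast markers 4 had a named row, of which DCN and LUM were dim and THY1 and VIM were above the limit. Of 3 named endothelium markers PECAM1 and KDR were dim and VWF was not, and of 5 hepatocyte markers ALB, APOB and FGB were dim and APOA1 and TTR were not. None of the 5 above the limit was called with either treatment. The leukocyte list had 3 of 8 markers named. Among them the lysosomal glycoprotein CD68 was called higher with both treatments, by 1.89 ± 0.08 with rosemary extract and 1.24 ± 0.08 with carnosic acid (log2, SE). LYZ, or lysozyme, was called lower with the extract (-0.26) and not with carnosic acid (-0.079), and CD14 was not called with either. CD14 averaged 4.67 with rosemary extract, 4.71 with carnosic acid and 4.98 in untreated cells. LYZ averaged 12.17, 12.35 and 12.43 in the same order, and so makes up most of the sum of the 3 markers. That summed level ran from 12.42 to 12.46 with rosemary extract, from 12.46 to 12.59 with carnosic acid and from 12.46 to 12.55 in untreated cells (log2 of the sum). The part of these markers in the results below was not tested.

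Autophagy encloses cytoplasm in a double membrane and delivers it to lysosomes. The ULK kinase complex starts the process, a class III phosphatidylinositol 3-kinase (PI3K) complex marks the growing membrane with the lipid PI3P, and ATG2, ATG9 and the PI3P-binding WIPI proteins feed it with lipid. Conjugation enzymes attach small ubiquitin-like ATG8 proteins, the LC3 and GABARAP families, to that membrane, where cargo receptors such as SQSTM1 bind them. In colon cells the pathway handles damaged organelles and protein aggregates.

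With rosemary extract 24 of the 39 measured genes were called higher and 0 lower, where 38.1% of all genes tested were called, 21.8% higher and 16.3% lower. At an unadjusted p under 0.05, the limma fit placed 1 member lower and 29 higher. The share of all genes at that unadjusted threshold was not computed. With carnosic acid 15 of 39 were called higher and 1 lower, beside 19.0% of all genes called, 12.9% higher and 6.12% lower. The median log2 change over the 39 was 0.35 with rosemary extract and 0.20 with carnosic acid, while that over all genes tested was -0.018 and -0.011. The 2 comparisons share their untreated arrays. With rosemary extract 29 of the 39 genes had arrays wholly apart from the untreated ones, and with carnosic acid 24 had, beside 46.7% and 32.8% of all genes tested. Changes of at least 1.5-fold that were also called numbered 10 with rosemary extract and 2 with carnosic acid, beside 13.9% and 4.10% of all genes. Counted by role, each group held at least 1 gene called with the extract, where 38.1% of all genes tested were called. The conjugation genes had 2 of 7. The 2 TP53INP genes had 1, a call lost in 14 of 18 alternative settings.

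The median over the 39 genes of the level minus the untreated mean was 0.42, 0.43 and 0.24 in the rosemary extract arrays, 0.25, 0.16 and 0.22 in the carnosic acid arrays and 0.034, -0.065 and 0.038 in the untreated arrays. All 6 treated arrays lay above all 3 untreated ones. Rosemary extract replicate 3 held the lowest of its group's values in 20 of the 24 genes called higher with the extract, and untreated replicate 2 the lowest untreated value in 15. The order of the replicates was not counted over all genes. Over all genes tested the same medians lay between -0.025 and 0.017. The count called higher with rosemary extract was 19 to 24 when any 1 array was left out. The count with carnosic acid was 7 without carnosic acid replicate 1 and between 7 and 17 over all arrays left out in turn. When every row of the array was tested, named or not, the counts were 19 and 7. In that fit 4207 of 53617 rows were called higher with rosemary extract and 1746 with carnosic acid. The main fit called 2439 and 1440 of 11163 genes higher.

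**Figure D1:**
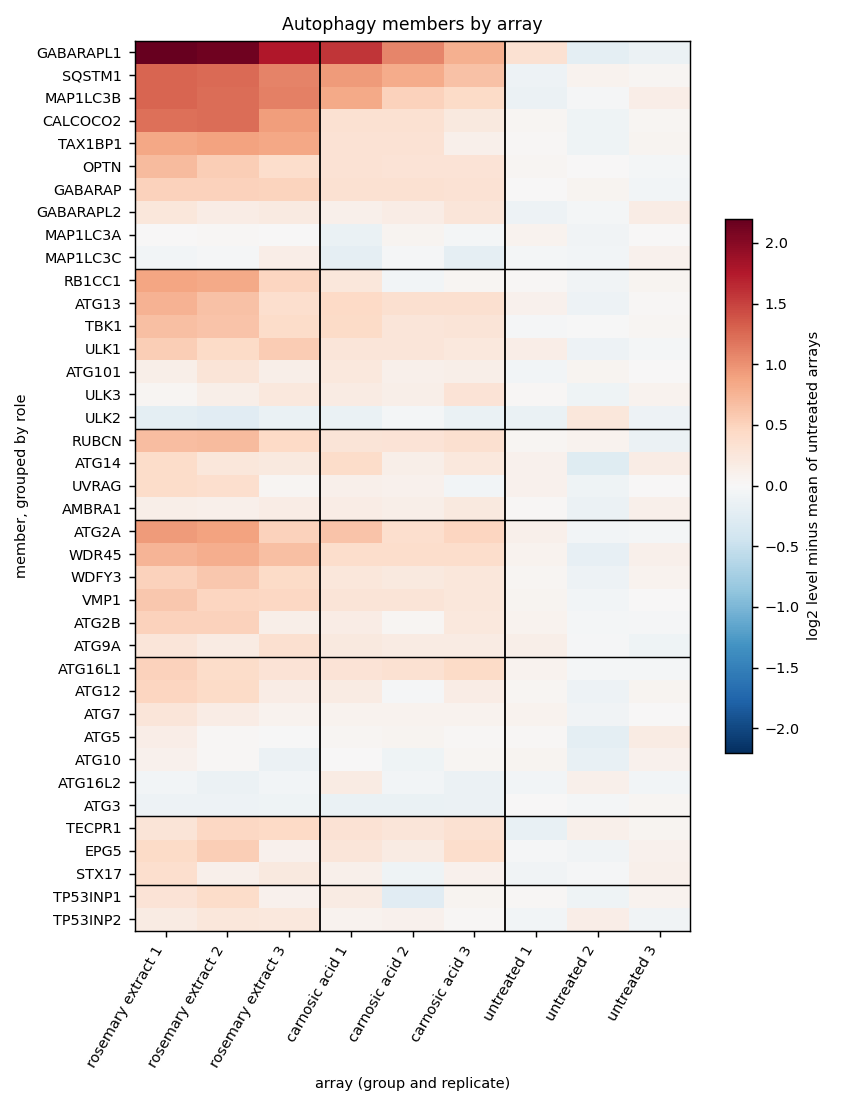
Each row is a gene grouped by role, each column an array, and the colour gives the log2 level minus the mean of the 3 untreated arrays (red higher, blue lower). The strongest red lies in the rosemary extract columns for GABARAPL1, SQSTM1, MAP1LC3B and CALCOCO2, with paler red in the carnosic acid columns.

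Cargo receptors and ATG8 proteins held the largest changes. SQSTM1 (sequestosome 1), which gathers ubiquitylated proteins and binds LC3, reached 9.46, 9.44 and 9.28 with rosemary extract and 9.12, 9.01 and 8.83 with carnosic acid, against 8.07, 8.26 and 8.22 in untreated cells. Each rosemary extract array lay above each carnosic acid array, and these above each untreated array. The rise was 1.21 ± 0.09 with the extract (log2, SE, 2.31-fold, limma adjusted p = 6.87e-07) and 0.80 ± 0.09 with carnosic acid (1.74-fold, adjusted p = 9.26e-05). The extract exceeded carnosic acid by 0.41 ± 0.09 (adjusted p = 0.00607).

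CALCOCO2, a receptor that recognises invading bacteria and damaged membranes, stood at 7.04, 7.07 and 6.75 with rosemary extract and 6.17, 6.17 and 6.04 with carnosic acid, against 5.88, 5.75 and 5.88 in untreated cells. The extract raised it by 1.12 ± 0.10 (2.17-fold, limma adjusted p = 4.01e-06). Carnosic acid arrays also lay above the untreated ones, but the difference of 0.29 ± 0.10 did not pass (adjusted p = 0.0602), and the treatments differed by 0.82 ± 0.10 (adjusted p = 0.000156). TAX1BP1, a related ubiquitin-binding receptor, gave 11.16, 11.19 and 11.15 with rosemary extract and 10.63, 10.63 and 10.43 with carnosic acid, against 10.34, 10.21 and 10.37 in untreated cells. It rose by 0.86 ± 0.06 with the extract (1.81-fold) and by 0.25 ± 0.06 with carnosic acid (limma adjusted p = 8.35e-07 and adjusted p = 0.0158). The 2 treatments differed by 0.61 ± 0.06 (adjusted p = 4.30e-05). The carnosic acid call of TAX1BP1 did not hold without carnosic acid replicates 1 or 2 (adjusted p = 0.0716 and adjusted p = 0.0618) or untreated replicate 2 (0.0594). OPTN, or optineurin, a receptor in mitophagy and in the removal of bacteria, rose by 0.54 ± 0.09 with the extract (adjusted p = 0.000477). Its rise with carnosic acid was 0.31 ± 0.09 (adjusted p = 0.0328). That call was lost without any 1 of 7 arrays, which are rosemary extract replicate 2 and all carnosic acid and untreated replicates (adjusted p between 0.0512 and 0.0955), and under median centring (0.0599).

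Among the LC3 genes only MAP1LC3B was called, at 6.78, 6.72 and 6.60 with rosemary extract and 6.32, 6.0 and 5.91 with carnosic acid, against 5.37, 5.46 and 5.64 in untreated cells. The 3 groups did not overlap. Its rise was 1.21 ± 0.12 with the extract (2.31-fold, limma adjusted p = 7.80e-06) and 0.58 ± 0.12 with carnosic acid (adjusted p = 0.00479), and the treatments differed by 0.62 ± 0.12 (adjusted p = 0.00311). MAP1LC3A gave a difference of 0.019 with the extract (95% interval -0.17 to 0.21) and MAP1LC3C one of 0.017 (-0.18 to 0.22). With carnosic acid these were -0.038 (-0.22 to 0.15) and -0.14 (-0.34 to 0.061). A near-identical intronless copy, MAP1LC3B2, has its own row, which differed by -0.062 (-0.29 to 0.17) with the extract. Shared probe sequence between the 2 genes was not examined.

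GABARAPL1, an ATG8 protein of the GABARAP branch, had the largest change of the 39 genes with either treatment. It reached 8.27, 8.05 and 7.68 with rosemary extract and 7.49, 6.99 and 6.71 with carnosic acid, against 6.25, 5.71 and 5.79 in untreated cells. The groups did not overlap, although the replicates spread more than for SQSTM1. The extract raised it by 2.08 ± 0.21 (4.24-fold, limma adjusted p = 1.06e-05) and carnosic acid by 1.14 ± 0.21 (2.21-fold, adjusted p = 0.00290). Between the treatments the difference was 0.94 ± 0.21 (adjusted p = 0.00878), or adjusted p = 0.0636 when every row of the array was tested. GABARAP rose by 0.50 ± 0.04 with the extract and 0.32 ± 0.04 with carnosic acid (adjusted p = 4.05e-06 and adjusted p = 0.000461). GABARAPL2 lay at 0.20 ± 0.07 with the extract, just outside the threshold (adjusted p = 0.0506), and at 0.18 ± 0.07 with carnosic acid (adjusted p = 0.123). In RefSeq, SQSTM1 overlaps MGAT4B and MRNIP and GABARAPL1 overlaps the antisense RNA GABARAPL1-AS1, all on the opposite strand, and GABARAP overlaps PHF23 on its own strand. Where the probes lie within these genes was not examined.

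Promoters are shown for the 4 genes with the largest rises with rosemary extract in this group, since all 4 rose with rosemary extract and were higher with it than with carnosic acid. The windows run from 250 bases before to 50 after the annotated start (RefSeq, GRCh38.p14, plus strand for all 4). They are chr5:179806143-179806442 for SQSTM1, chr16:87392086-87392385 for MAP1LC3B, chr12:10212627-10212926 for GABARAPL1 and chr17:48830785-48831084 for CALCOCO2. Capitals mark matches on either strand to the antioxidant response element core TGACNNNGC, the C/EBP-ATF response element core TGATGNAA, the E-box CACGTG and the ATF/CREB core TGACGTC, the last added after the sequences were seen.
SQSTM1: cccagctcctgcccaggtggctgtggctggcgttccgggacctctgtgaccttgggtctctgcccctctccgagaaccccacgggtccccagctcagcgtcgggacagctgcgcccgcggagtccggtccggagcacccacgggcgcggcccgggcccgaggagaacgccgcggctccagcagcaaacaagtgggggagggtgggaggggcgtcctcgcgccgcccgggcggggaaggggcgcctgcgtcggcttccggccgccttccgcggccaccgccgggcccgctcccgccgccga
MAP1LC3B: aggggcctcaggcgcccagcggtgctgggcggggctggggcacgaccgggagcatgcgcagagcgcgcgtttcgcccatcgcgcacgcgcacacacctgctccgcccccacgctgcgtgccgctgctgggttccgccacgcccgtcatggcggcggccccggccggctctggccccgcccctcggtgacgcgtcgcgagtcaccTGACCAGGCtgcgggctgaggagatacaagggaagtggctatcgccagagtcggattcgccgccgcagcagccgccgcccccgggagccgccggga
GABARAPL1: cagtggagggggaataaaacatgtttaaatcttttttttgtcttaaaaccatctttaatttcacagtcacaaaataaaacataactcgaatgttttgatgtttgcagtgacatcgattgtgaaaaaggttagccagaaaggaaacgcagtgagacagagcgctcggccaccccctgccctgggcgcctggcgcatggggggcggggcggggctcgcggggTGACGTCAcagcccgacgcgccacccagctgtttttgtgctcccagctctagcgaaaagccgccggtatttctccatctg
CALCOCO2: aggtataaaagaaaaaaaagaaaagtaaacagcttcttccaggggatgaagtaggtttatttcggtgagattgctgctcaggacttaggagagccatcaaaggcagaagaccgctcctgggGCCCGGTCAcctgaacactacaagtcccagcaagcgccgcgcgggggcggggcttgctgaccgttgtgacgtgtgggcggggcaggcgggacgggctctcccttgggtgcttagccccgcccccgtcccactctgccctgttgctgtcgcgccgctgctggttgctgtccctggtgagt
The SQSTM1 window held no match. MAP1LC3B had an antioxidant response element core at -46 to -38 from the start and CALCOCO2 one on the opposite strand at -129 to -121. GABARAPL1 had overlapping ATF/CREB matches on both strands at -30 to -23. Of the 39 measured genes 32 had a promoter entry. The antioxidant core occurred in 5 of these 32 (15.6%) and in 15.0% of the 8486 genes tested that had an entry, and the E-box in 4 (12.5%) against 9.86%. The C/EBP-ATF core was found in 1 (3.12%) against 1.71% and the ATF/CREB core in 2 (6.25%) against 5.17%. These shares are a description of short windows, and a match is not evidence of binding.

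**Figure D2:**
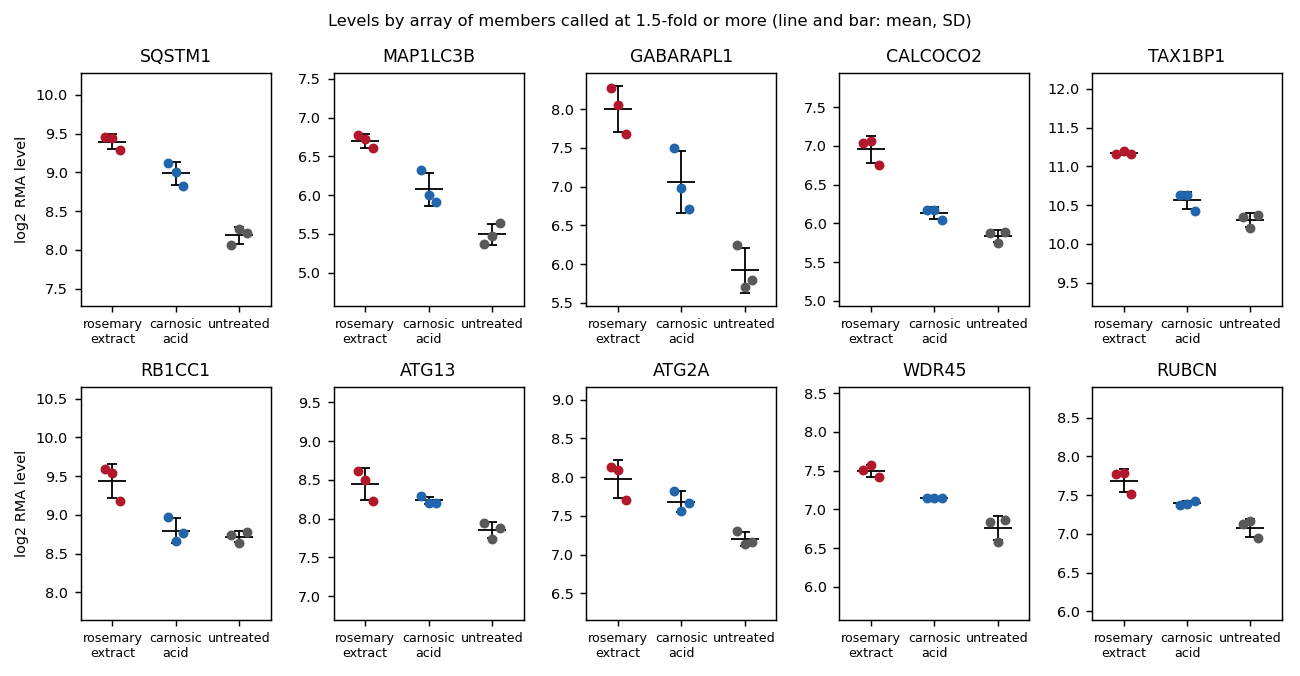
Points are log2 RMA levels of single arrays for the 10 genes called with a change of at least 1.5-fold, with rosemary extract left, carnosic acid in the middle and untreated cells right, and every panel spans 3 log2 units. Lines and bars give the mean and SD of 3 arrays. All panels show rosemary extract above untreated cells without overlap, and for RB1CC1 the carnosic acid arrays overlap the untreated ones.

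Of the 7 initiation genes 4 were called higher with rosemary extract, beside 21.8% of all genes tested. With carnosic acid 2 were, beside 12.9%. The group counts the kinase TBK1 together with the ULK complex genes, and TBK1 is among those called with each treatment. RB1CC1, the scaffold of the ULK complex, stood at 9.59, 9.54 and 9.18 with rosemary extract and 8.97, 8.66 and 8.76 with carnosic acid, against 8.73, 8.64 and 8.78 in untreated cells. The extract raised it by 0.72 ± 0.11 (1.65-fold, limma adjusted p = 0.000263), while carnosic acid gave 0.081 with a 95% interval of -0.16 to 0.32. The treatments differed by 0.64 ± 0.11 (adjusted p = 0.00171). ATG13, the subunit that links ULK1 to RB1CC1, gave 8.62, 8.5 and 8.22 with rosemary extract and 8.29, 8.20 and 8.20 with carnosic acid, against 7.94, 7.74 and 7.87 in untreated cells. It rose by 0.59 ± 0.10 with the extract (adjusted p = 0.000408) and by 0.38 ± 0.10 with carnosic acid (adjusted p = 0.0162). The second of these did not pass without carnosic acid replicate 1 (adjusted p = 0.0676) or untreated replicate 2 (0.0650).

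ULK1, the kinase itself, rose by 0.51 ± 0.08 with rosemary extract (limma adjusted p = 0.000406) and stood 0.25 ± 0.08 above untreated with carnosic acid (adjusted p = 0.0569). TBK1, a kinase that phosphorylates OPTN and SQSTM1, rose by 0.56 ± 0.08 with the extract and 0.32 ± 0.08 with carnosic acid (adjusted p = 0.000167 and adjusted p = 0.0153). For TBK1 the carnosic acid call ended without carnosic acid replicate 1 (adjusted p = 0.0722) or untreated replicate 1 (0.0504). ULK2, ULK3 and ATG101 did not pass with either treatment. Their differences ran from -0.20 to 0.18 with the extract and from -0.10 to 0.20 with carnosic acid. ATG101 had a second, dimmer row, which gave 0.078 with the extract and -0.20 with carnosic acid, where the row used gave 0.18 and 0.16.

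Of the genes for membrane supply and PI3P binding, all 6 measured were called higher with rosemary extract and 4 with carnosic acid. Of all genes tested 21.8% were called higher with the extract and 12.9% with carnosic acid. ATG2A, a lipid transfer protein that bridges the endoplasmic reticulum and the growing membrane, gave 8.14, 8.09 and 7.70 with rosemary extract and 7.82, 7.56 and 7.67 with carnosic acid, against 7.31, 7.14 and 7.16 in untreated cells. It rose by 0.78 ± 0.12 with the extract (1.71-fold, limma adjusted p = 0.000230) and by 0.49 ± 0.12 with carnosic acid (adjusted p = 0.0124, or 0.0602 without carnosic acid replicate 1). Its paralogue ATG2B rose by 0.38 ± 0.11 with the extract (adjusted p = 0.0150). This call was lost without rosemary extract replicate 1 (adjusted p = 0.0698), rosemary extract replicate 2 (0.0707) or untreated replicate 2 (0.0515). WDR45, a WIPI-family protein that binds PI3P and ATG2, had 7.51, 7.57 and 7.41 with rosemary extract and 7.15, 7.15 and 7.15 with carnosic acid, against 6.84, 6.58 and 6.87 in untreated cells. The rises were 0.74 ± 0.09 and 0.39 ± 0.09 (adjusted p = 3.70e-05 with the extract and adjusted p = 0.00869 with carnosic acid). The 3 carnosic acid values of WDR45 were identical, so their spread is not a measure of the replicates.

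VMP1, an endoplasmic reticulum scramblase, rose by 0.50 ± 0.05 with rosemary extract and 0.27 ± 0.05 with carnosic acid (limma adjusted p = 5.03e-06 and adjusted p = 0.00185). The microRNA gene MIR21 lies within the annotated VMP1 gene and had a row of its own, which rose by 0.50 ± 0.13 with the extract (adjusted p = 0.0113, or 0.0569 without rosemary extract replicate 1). With carnosic acid that row gave 0.14 (95% interval -0.15 to 0.43). WDFY3, a large adaptor for aggregates, rose by 0.51 ± 0.07 with the extract and 0.24 ± 0.07 with carnosic acid (adjusted p = 9.16e-05 and adjusted p = 0.0281). The second call was lost without any 1 carnosic acid replicate or untreated replicate 2 (adjusted p between 0.0594 and 0.0906), under median centring (0.0548) and under cyclic loess (0.0626). ATG9A, which seeds the membrane, rose by 0.27 ± 0.07 with the extract (adjusted p = 0.0120, or 0.0764 under cyclic loess).

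PIK3C3, PIK3R4 and BECN1, the catalytic and core subunits of the class III PI3K complex, had no named row. The genes of this group that were measured were UVRAG, ATG14, RUBCN and AMBRA1. RUBCN, or Rubicon, which restrains this kinase complex, stood at 7.77, 7.78 and 7.51 with rosemary extract and 7.37, 7.38 and 7.43 with carnosic acid, against 7.13, 7.16 and 6.95 in untreated cells. The groups did not overlap. It rose by 0.61 ± 0.09 with the extract (1.52-fold, limma adjusted p = 0.000217) and by 0.31 ± 0.09 with carnosic acid (adjusted p = 0.0305). The carnosic acid call was lost without any 1 carnosic acid replicate, untreated replicate 1 or untreated replicate 3 (adjusted p between 0.0534 and 0.0940), under median centring (0.0523) and under cyclic loess (0.0552). UVRAG, a partner of BECN1, was called with the extract at 0.27 ± 0.10 (adjusted p = 0.0403), with overlapping arrays. That call was lost in 12 of 18 alternative settings, among them leaving out rosemary extract replicate 1 (adjusted p = 0.162), rosemary extract replicate 2 (0.149), carnosic acid replicates 1 (0.0511) or 2 (0.0545), untreated replicate 2 (0.135) or untreated replicate 3 (0.0804). ATG14 and AMBRA1 did not pass with either treatment, with differences between 0.13 and 0.29.

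Of 7 measured conjugation genes 2 were called higher with rosemary extract, beside 21.8% of all genes tested. With carnosic acid 1 was called higher and 1 lower, beside 12.9% and 6.12%, so these counts are near those of all genes. ATG16L1, which directs LC3 lipidation to the membrane, rose by 0.40 ± 0.07 with the extract and 0.35 ± 0.07 with carnosic acid (limma adjusted p = 0.00107 and adjusted p = 0.00657). ATG12, the ubiquitin-like protein joined to ATG5, rose by 0.35 ± 0.10 with the extract (adjusted p = 0.0166). Its call was lost without rosemary extract replicate 1 (adjusted p = 0.0748), rosemary extract replicate 2 (0.0688) or untreated replicate 2 (0.0652). ATG3, the E2-like enzyme for ATG8 proteins, had 9.71, 9.72 and 9.72 with rosemary extract and 9.68, 9.68 and 9.70 with carnosic acid, against 9.82, 9.79 and 9.86 in untreated cells. It fell by 0.14 with carnosic acid (SE 0.04, adjusted p = 0.0485), a call lost when any 1 array other than untreated replicate 2 was left out (adjusted p between 0.0563 and 0.124). With the extract the difference was -0.11 (adjusted p = 0.0745), and this passed under median centring (adjusted p = 0.0195) and cyclic loess (0.00434). ATG5, ATG7, ATG10 and ATG16L2 did not pass, with differences from -0.082 to 0.17 with the extract and from -0.013 to 0.082 with carnosic acid.

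Of the 3 late-step genes, TECPR1, a tether between autophagosomes and lysosomes, rose by 0.40 ± 0.09 with rosemary extract and 0.31 ± 0.09 with carnosic acid (limma adjusted p = 0.00470 and adjusted p = 0.0374). The second call was lost without rosemary extract replicate 2, any 1 carnosic acid replicate, untreated replicate 1 or untreated replicate 3 (adjusted p between 0.0510 and 0.122). It was lost also under median centring (0.0674) and with the rosemary extract arrays out of the fit (0.0627). EPG5, another tether, rose by 0.35 ± 0.11 with the extract (adjusted p = 0.0302), with overlapping arrays. The call was lost without rosemary extract replicate 1 (adjusted p = 0.103), rosemary extract replicate 2 (0.135), untreated replicate 1 (0.0798) or untreated replicate 2 (0.0975), and with the carnosic acid arrays out of the fit (0.0536). STX17, the autophagosomal SNARE, did not pass with either treatment. TP53INP2, a nuclear cofactor that also binds ATG8 proteins, was called with the extract at 0.22 ± 0.08 (adjusted p = 0.0481). That call was lost when any 1 array other than untreated replicate 2 was left out (adjusted p between 0.0552 and 0.136). TP53INP1 did not pass with either treatment.

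**Figure D3:**
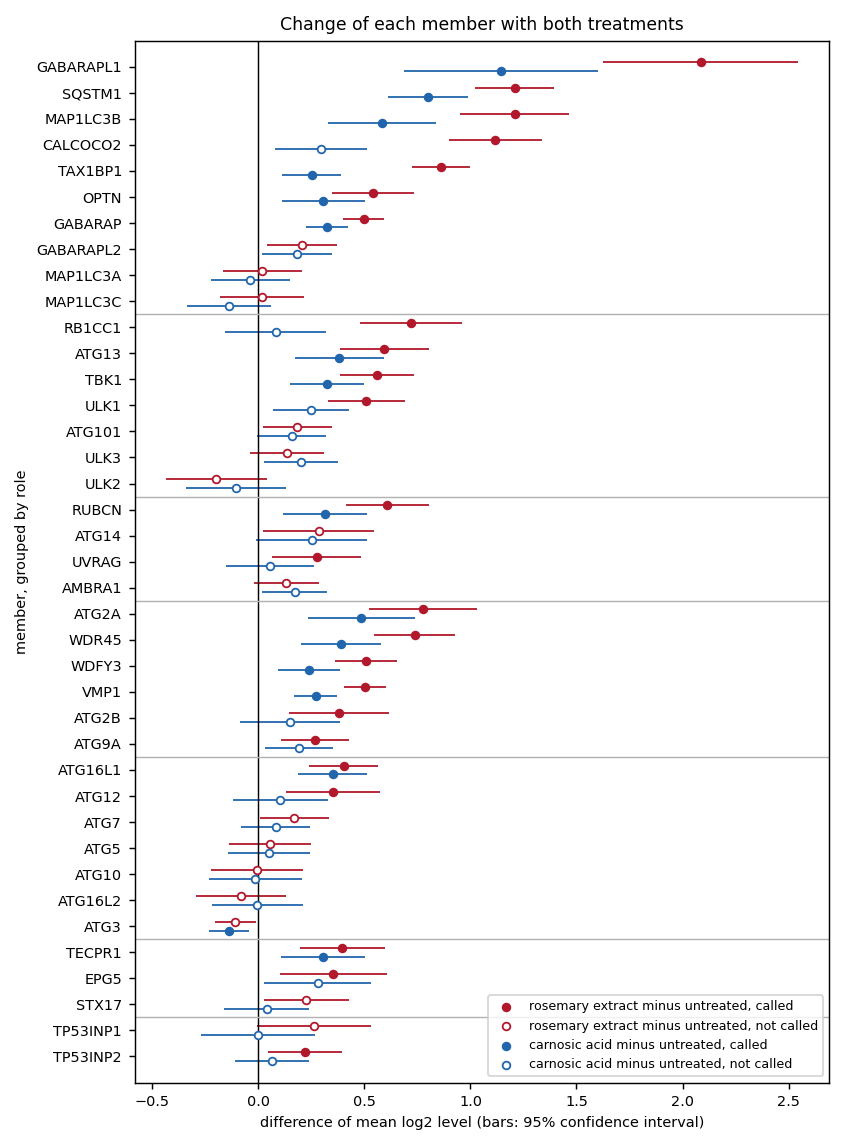
Points are differences of mean log2 level from untreated cells for the 39 genes, grouped by role, with rosemary extract in red above carnosic acid in blue, and bars are 95% confidence intervals. Filled points were called. GABARAPL1, SQSTM1, MAP1LC3B and CALCOCO2 lie above 1 with the extract, and most conjugation enzymes lie near 0 with both treatments.

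In the direct comparison of the treatments 12 of 39 genes were higher with rosemary extract than with carnosic acid and 0 lower (limma), where 17.3% of all genes tested were called, 8.24% higher and 9.07% lower. Calls with a difference of at least 1.5-fold numbered 5 of the 39, beside 5.12% of all genes tested. At an unadjusted p under 0.05, 0 were lower and 18 higher. The share of all genes at that unadjusted threshold was not computed. Calls fell on 6 of the 10 cargo receptors and ATG8 genes, 3 of the 6 membrane genes, 2 of the 7 initiation genes, RUBCN, and 0 of the 7 conjugation genes. CALCOCO2, TAX1BP1, RB1CC1, MAP1LC3B, SQSTM1 and VMP1 kept their calls in all 18 alternative settings. For VMP1 the difference was 0.23 ± 0.05 (adjusted p = 0.00446). The 27 genes not called had differences between -0.094 and 0.29. Intervals for ATG5 (-0.19 to 0.20), ATG10 (-0.21 to 0.23) and ATG16L1 (-0.11 to 0.21) leave differences within those limits possible.

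Another 5 calls between the treatments depended on single arrays. GABARAP differed by 0.17 ± 0.04 (limma adjusted p = 0.0185), a call lost without rosemary extract replicates 1 (0.0633) or 2 (0.0716) or carnosic acid replicates 2 (0.0550) or 3 (0.0593), and without a mean-variance trend (0.0816). WDR45 differed by 0.35 ± 0.09 (adjusted p = 0.0167), lost without rosemary extract replicates 1 (0.0592) or 2 (0.0789) or carnosic acid replicates 2 (0.0503) or 3 (0.0502). WDFY3 differed by 0.27 ± 0.07 (adjusted p = 0.0164), lost without rosemary extract replicate 1 (0.0552), rosemary extract replicate 2 (0.0853) or carnosic acid replicate 2 (0.0591). ULK1 differed by 0.26 ± 0.08 (adjusted p = 0.0477), lost without any 1 treated array or untreated replicate 3 (adjusted p between 0.0550 and 0.149). RUBCN differed by 0.29 ± 0.09 (adjusted p = 0.0437), lost without rosemary extract replicate 1 or 2, any 1 carnosic acid replicate or untreated replicate 1 (adjusted p between 0.0572 and 0.175). The count of 12 became 7 without rosemary extract replicate 1, rosemary extract replicate 2 or carnosic acid replicate 2.

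**Figure D4:**
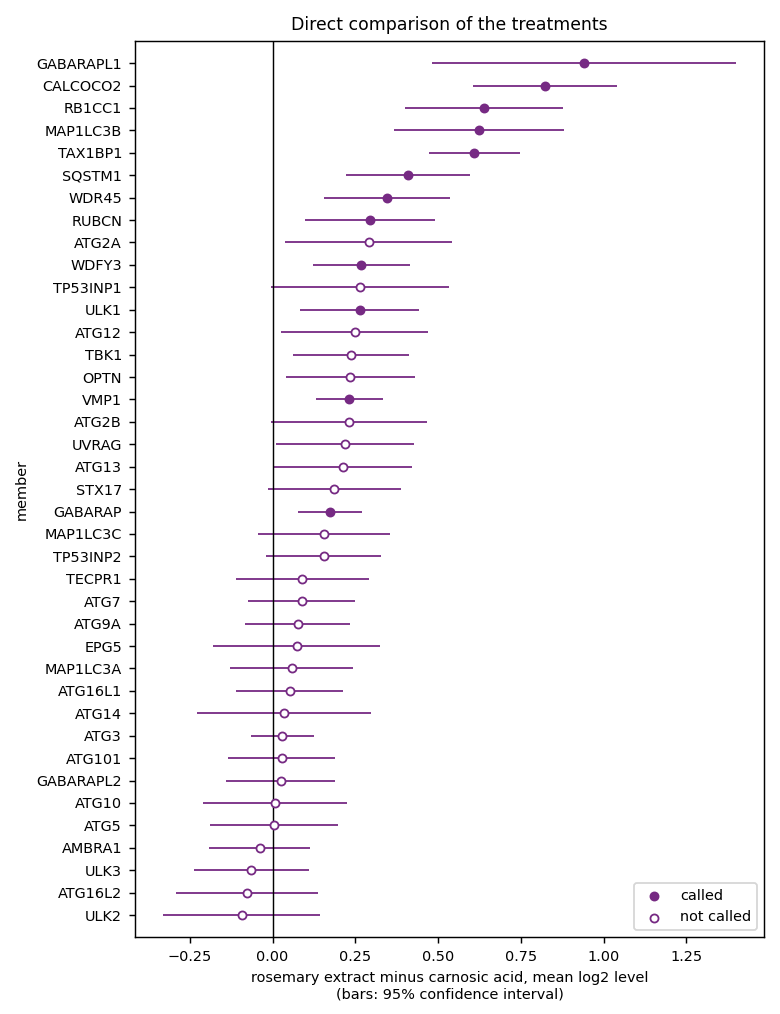
Points are the mean log2 level with rosemary extract minus that with carnosic acid for the 39 genes, sorted, and bars are 95% confidence intervals. The 12 filled points were called, all to the right of 0, led by GABARAPL1 at 0.94 and CALCOCO2 at 0.82.

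Lists of neighbouring genes, written with earlier results of these data known, were read in the same fit. The counts below stand beside 21.8% of all genes tested called higher and 16.3% lower with rosemary extract, and 12.9% higher and 6.12% lower with carnosic acid. Among 19 tested upstream regulators 10 were called higher and 0 lower with rosemary extract (limma), and 5 higher and 0 lower with carnosic acid. The lower count with the extract was 2 under cyclic loess and 1 under median centring, in a fit without the carnosic acid arrays, without rosemary extract replicate 2 and without carnosic acid replicate 3. The carnosic acid count of higher genes was 3 without carnosic acid replicate 1 or untreated replicate 2, and 2 when every row was tested. TFE3, a transcription factor of lysosome and autophagy genes, gave 9.26, 9.30 and 9.27 with rosemary extract and 9.0, 8.96 and 8.96 with carnosic acid, against 8.23, 8.45 and 8.26 in untreated cells. It rose by 0.97 ± 0.06 and 0.67 ± 0.06 (adjusted p = 4.56e-07 with the extract and adjusted p = 5.08e-05 with carnosic acid). RRAGC, a Rag GTPase that recruits mTORC1 to lysosomes, rose by 1.15 ± 0.11 with the extract and 0.42 ± 0.11 with carnosic acid. FNIP1, a partner of folliculin, rose by 1.06 ± 0.15 and 0.68 ± 0.15, and AKT1S1, an mTORC1 inhibitor, by 0.84 ± 0.09 and 0.54 ± 0.09, with the extract first in both. RRAGC's carnosic acid call (adjusted p = 0.0237) was lost without carnosic acid replicate 1 (0.101), carnosic acid replicate 2 (0.0678), untreated replicate 2 (0.0784) or untreated replicate 3 (0.0548).

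Of 14 tested receptors for single organelles 6 were called higher and 3 lower with rosemary extract, where 21.8% and 16.3% of all genes were, so the lower count is near that of all genes. With carnosic acid 4 were higher and 2 lower, where 12.9% and 6.12% of all genes were. The lower count became 1 without carnosic acid replicates 1 or 2 or untreated replicates 1 or 3, and when every row was tested. CALCOCO1, a receptor for endoplasmic reticulum and Golgi and a paralogue of CALCOCO2, rose by 1.5 ± 0.11 with the extract (2.83-fold) and 0.77 ± 0.11 with carnosic acid (limma adjusted p = 7.62e-07 and adjusted p = 0.000505). PINK1, the kinase that marks damaged mitochondria, rose by 1.16 ± 0.11 and 0.78 ± 0.11 in the same order. BNIP3L, a mitophagy receptor, rose by 0.87 ± 0.10 with the extract and 0.49 ± 0.10 with carnosic acid, and NCOA4, the ferritin receptor, by 0.46 ± 0.05 and 0.24 ± 0.05. The lower genes, named after their values were seen, were the mitochondrial proteins NIPSNAP1 (-0.59 with the extract, -0.30 with carnosic acid) and PHB2 (-0.30 and -0.24) and, with the extract, the atlastin ATL3 (-0.33). NIPSNAP1 lost its carnosic acid call without carnosic acid replicate 1 (adjusted p = 0.100), carnosic acid replicate 2 (0.0735), untreated replicate 1 (0.0861) or untreated replicate 3 (0.0679).

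Among 12 tested partners of the PI3K complex, ATG9 and the scramblases 7 were called higher and 1 lower with rosemary extract, and 5 higher and 0 lower with carnosic acid, beside 21.8% and 16.3% of all genes with the extract and 12.9% and 6.12% with carnosic acid. C9orf72, part of a complex that regulates ULK1 and Rab GTPases, reached 8.26, 8.02 and 7.56 with rosemary extract and 7.03, 6.72 and 6.64 with carnosic acid, against 5.96, 5.62 and 5.67 in untreated cells. It rose 4.57-fold with the extract and 2.06-fold with carnosic acid (limma adjusted p = 1.26e-06 and adjusted p = 0.00130), and the treatments differed by 1.15 ± 0.17 (adjusted p = 0.000658). TMEM41B, a scramblase that works beside VMP1, rose by 1.24 ± 0.10 and 0.81 ± 0.10, extract first. MTMR3, a PI3P phosphatase, rose by 0.56 ± 0.07 with the extract and 0.39 ± 0.07 with carnosic acid, and BCL2L1, which binds BECN1, by 0.41 ± 0.05 and 0.29 ± 0.05. The 1 lower gene, SNX4 (-0.18, adjusted p = 0.0436), was named after its value was seen. It lost its call in 11 of 18 settings, among them leaving out rosemary extract replicates 2 or 3, any 1 carnosic acid replicate, or untreated replicates 1 or 3 (adjusted p between 0.0525 and 0.186).

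Fusion genes were called higher in 6 of 10 with rosemary extract and 2 of 10 with carnosic acid, and lower in 0 with either, where 21.8% of all genes were called higher with the extract and 12.9% with carnosic acid. The carnosic acid count is near that of all genes. VPS18, a core subunit of the tethering complexes of late endosomes, rose by 0.94 ± 0.06 with the extract and 0.68 ± 0.06 with carnosic acid (limma adjusted p = 3.27e-07 and adjusted p = 2.67e-05). Its partner VPS11 rose by 0.56 ± 0.09 and 0.43 ± 0.09, extract first. The SNAREs YKT6 (0.42 ± 0.07) and VAMP7 (0.27 ± 0.05) rose with the extract, and with carnosic acid they gave 0.19 (adjusted p = 0.0738) and 0.057 (adjusted p = 0.478). This list had 1 lower gene with each treatment under cyclic loess or when untreated replicate 3 was left out, and 1 with carnosic acid under median centring.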

How the data were processed

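Total RNA of HT-29 cells was measured on 9 arrays. Per the labels, the authors made the deposited log2 expression values by RMA with the oligo package in R. No version is named in what was read here, and the values themselves show the log2 scale. RMA gives no detection call and compresses large changes. Exact ties between arrays, 2.57% to 5.57% of tested genes per pair, touched 17 of the 39 members, and their cause was not examined. Ties within the carnosic acid group were seen for CALCOCO2, TAX1BP1, OPTN, GABARAP and WDR45, among others. Such ties may understate the spread, and with it the SE and adjusted p given for these genes. The number of arrays limits the precision.

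Of 53617 rows 16098 had 1 gene symbol, 0 several and 37519 none; all 16098 Entrez identifiers matched RefSeq (GRCh38.p14) and 0 symbols changed. The brightest row stood for a gene, and the lowest 25% of genes by mean were left out, which left 11163. Group means were fitted to all 9 arrays with limma 3.58.1 in R 4.3.3 (lmFit, eBayes with trend, two-sided, threshold 0.05 after Benjamini-Hochberg adjustment). The same fit was run on simulated data with independent normal noise and fewer changed genes than here, which checks the code only. Errors are limma's SE. Alternatives changed the filter, row rule, scaling, arrays, trend and replicate block, and left out each array.

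Members and lists were chosen with earlier results of these data known. All 50 members may be named; called ones are given with values, and those changed at least 1.5-fold without overlap, with SQSTM1, MAP1LC3B and GABARAPL1, array by array. Each neighbouring list gives up to 4 called genes with the smallest p.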

Additional observations from a re-analysis of the deposited data

How the results depend on the processing

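Of the 24 members called with rosemary extract 18 kept the call in all 18 alternative settings, of the 16 called with carnosic acid 7 did (SQSTM1, MAP1LC3B, GABARAP, GABARAPL1, ATG16L1, WDR45 and VMP1), and of the 12 called between the treatments 6 did. The carnosic acid values of WDR45 were identical, so leaving out 1 of them could not change its group mean. No called member changed sign in any of these settings. Testing every row of the array gave 7230 calls over 53617 rows with rosemary extract, a smaller share than the 4256 over 11163 genes in the report's fit. The test of every row gave 7 members higher and 0 lower with carnosic acid, and 6 members higher between the treatments. More features tested and no dim filter enter that adjustment. Median centring and cyclic loess each put 1 member, ATG3, lower with rosemary extract. The 1 lower call with carnosic acid, also ATG3, became 0 with no dim filter, in the fit to the 6 arrays compared, without a mean-variance trend and with the replicate block. Leaving out 1 array at a time gave 1385 to 2124 calls over all genes with carnosic acid (2123 with all arrays), 7 to 17 members higher and 0 to 1 lower with carnosic acid, and 7 to 18 members higher between the treatments. Over all genes, carnosic acid calls split into 1440 higher and 683 lower, which became 1207 and 1098 under median centring and 1245 and 1022 under cyclic loess; the cause was not tested.

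Same-numbered arrays did not deviate together (correlations of deviations from group means between -0.219 and 0.238), so the numbers are not taken to pair the samples. With the replicate block 25 members were called higher with rosemary extract, 15 with carnosic acid and 11 between the treatments. Calls over all genes with the block were 4226 with rosemary extract, 2194 with carnosic acid and 1947 between the treatments. RMA values carry no background measure, so a low level such as that of MAP1LC3C cannot be told from background.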
